A study of Homo sapiens with 9 samples.

Results

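The genes described here code for mitochondrial ribosomal proteins (MRP genes) in NCCIT, an established human embryonal carcinoma line with features of pluripotent cells. They were chosen by symbol, MRPL for proteins named for the large ribosomal subunit and MRPS for those named for the small one, with pseudogenes left out and with 1 transcript cluster (the set of probes summarised for 1 transcript) per gene. This gave 73 of the 18417 genes named on the array, 48 MRPL and 25 MRPS. Of these, 70 (46 MRPL and 24 MRPS) were bright enough on at least 1 array to be tested, alongside 12254 genes in all. MRPL13, MRPL54 and MRPS18C did not reach the limit of 7.71 on the log2 scale in any array. A further 4 genes of the family, MRPL51, MRPS6, MRPS24 and MRPS28, had only clusters shared with another gene and stayed out of the counts.

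Mitochondria keep their own ribosome, which translates the few messages encoded by mitochondrial DNA, all of them for membrane subunits of the respiratory chain and ATP synthase. Its RNA is made in the mitochondrion, but every protein of it is encoded in the nucleus, made in the cytosol and imported, so its assembly draws on a large set of nuclear genes together with assembly factors, translation factors and mitochondrial tRNA synthetases. Several of these proteins have counterparts in bacterial ribosomes and others are particular to mitochondria, and inherited defects in a number of them impair respiration. Pluripotent and carcinoma cells are known for fast growth with much glycolysis, and their mitochondria change in form and activity as they differentiate.

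The study profiled NCCIT embryoid bodies, floating aggregates that form in dishes to which cells do not attach, in the presence or absence of 50 mM ethanol. There were 8 embryoid body arrays, 1 for each combination of ethanol, of an additive labelled FA and of 7 or 21 days: ethanol alone, ethanol with FA, FA alone and untreated, at each day. The last array came from undifferentiated NCCIT cells, the starting point for all of them, and all 9 arrays came from the same line. What FA stands for, and at what dose it was used, is not given in the sources at hand, and the treatment protocol describes 7 days of culture while the titles name 21. With 1 array per condition and no statement on separate cultures, p-values measure only how far the 8 embryoid body arrays scatter. That scatter may be technical. RNA came from whole cultures, so less MRP RNA per cell and fewer cells that make it cannot be told apart.

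Array medians lay between 7.67 and 7.76. The ethanol array of day 7 stood somewhat apart, since its correlation with the rest of its day averaged 0.983, where the remaining day 7 arrays reached 0.989 to 0.990 and the day 21 arrays 0.991 to 0.993. The labelled cell type was checked against embryonal carcinoma markers. Of these 8 of 8, among them SOX2, LIN28A and L1TD1, were bright enough to test, as were 0 of 4 blood and endothelium markers. So were 5 of 5 neural, 4 of 5 mesenchyme and 3 of 5 endoderm markers. The filter took the highest value on any array, so passing it does not single out the labelled type. Of the embryonal carcinoma markers 8 of 8 were lower at day 21 than in undifferentiated cells and 1 of 8 at day 7, while 4 of 5 neural markers, including PAX6 and DCX, were higher at day 21 and 1, NCAM1, was lower at day 7. Of the few testable markers of other types, PDGFRA and THY1 (2 of 4 for mesenchyme), GATA6 (1 of 3 for endoderm) and the muscle gene DES were called at day 21, with PDGFRA and GATA6 higher. THY1 (-0.92) and DES (-0.39) were already lower at day 7. The part that such a change of cell state has in the values below was not tested.

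The promoters of 4 MRP genes are shown because their genes stand for the patterns described below and carry motifs that were searched. MRPS12, MRPL57 and MRPL58 were lower already at day 7, and MRPL18 was lower at day 21 only. Each sequence runs 5′ to 3′ on the strand of its gene and ends at the base before the transcription start (RefSeq, GRCh38.p14). It begins at most 250 bases upstream, or at the base next to the start of a neighbouring gene read the other way. Capitals mark matches to the motifs defined in the next paragraph.
MRPS12, chr19:38930764-38930943, plus strand: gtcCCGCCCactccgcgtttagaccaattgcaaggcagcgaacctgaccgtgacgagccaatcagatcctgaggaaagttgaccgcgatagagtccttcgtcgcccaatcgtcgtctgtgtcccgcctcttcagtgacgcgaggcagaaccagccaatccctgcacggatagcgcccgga
MRPL57, chr13:21176553-21176657, plus strand: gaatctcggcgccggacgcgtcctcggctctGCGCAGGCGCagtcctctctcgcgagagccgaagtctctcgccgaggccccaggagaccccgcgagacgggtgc
MRPL58, chr17:75012420-75012669, plus strand: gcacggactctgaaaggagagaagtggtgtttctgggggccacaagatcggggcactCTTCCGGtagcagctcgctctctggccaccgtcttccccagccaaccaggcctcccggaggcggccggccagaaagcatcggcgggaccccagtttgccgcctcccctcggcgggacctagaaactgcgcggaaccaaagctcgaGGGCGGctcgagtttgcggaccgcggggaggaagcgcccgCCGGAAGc
MRPL18, chr6:159789603-159789811, plus strand: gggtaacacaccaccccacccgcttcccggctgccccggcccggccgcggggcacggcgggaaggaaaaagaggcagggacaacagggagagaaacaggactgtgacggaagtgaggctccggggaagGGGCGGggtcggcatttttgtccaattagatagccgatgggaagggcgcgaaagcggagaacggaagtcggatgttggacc

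ETS motifs were held by 22 of the 66 MRP promoters listed in RefSeq, or 33.3%, against 15.6% of the 9785 promoters of tested genes and 8.82% of all 27305 promoters. Motifs were searched on both strands in the 250 bases before the first listed start: ETS (CCGGAAG), NRF1 (GCGCA and GCGC with any base, N, between them), E-box (CACGTG), GC box (GGGCGG), YY1 (AAGATGG) and TATA box (TATAAA). Overlaps between motifs were allowed. The YY1 motif was in 7 MRP promoters (10.6%), against 3.35% for tested genes and 3.77% for all promoters. The NRF1 motif was in 8 (12.1%), against 10.4% and 5.53%, and the E-box in 6 (9.09%), against 9.02% and 6.49%. GC boxes were in 35 (53%), against 68.1% and 42.3%, and the TATA box was in 2 (3.03%), against 5.6% and 11.1%. The 66 include MRP genes too dim to test. Over the 64 tested MRP genes the shares were 31.2% for ETS, 10.9% for YY1 and 12.5% for NRF1. They were 7.81% for the E-box, 54.7% for GC boxes and 1.56% for the TATA box. Among the 64 tested MRP genes with a listed promoter, the median log2 difference between embryoid bodies and undifferentiated cells was -0.26 for the 20 with an ETS motif and -0.29 for the 44 without. It was -0.50 for the 7 with a YY1 motif and -0.27 for the 57 without. The counts use all 250 bases, also past the start of a neighbouring gene: the YY1 match counted for MRPS12 lies beyond the stretch printed above. A match describes these letters and is not a measured binding site.

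MRP genes were lower in embryoid bodies than in undifferentiated cells, by a modest amount spread over much of the family. In the average over both days 37 of 70 tested MRP genes fell and 0 rose, with a median log2 difference of -0.32, or 1.25-fold. Over all 12254 genes 17.2% were called lower and 11% higher, with a median of -0.05. MRPL24, whose bacterial counterpart acts early in assembly of the large subunit, had the largest decrease, to 8.81 at the lowest, 8.89 at the median and 8.97 at the highest of 8 embryoid body arrays, against 9.63 in undifferentiated cells. Its log2 difference was -0.76 ± 0.08 (SE of the fit), or 1.70-fold (limma, adjusted p = 0.00117). The difference compares the untreated embryoid body level of an additive fit over ethanol, FA and day with the undifferentiated array, and calls use a Benjamini-Hochberg adjusted p under 0.05 over all genes tested. It rests on 1 undifferentiated array, so a property of that array cannot be told apart from the undifferentiated state. That array has its own term in the fit, so the SE and p hold no scatter among undifferentiated cells.

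**Figure D1:**
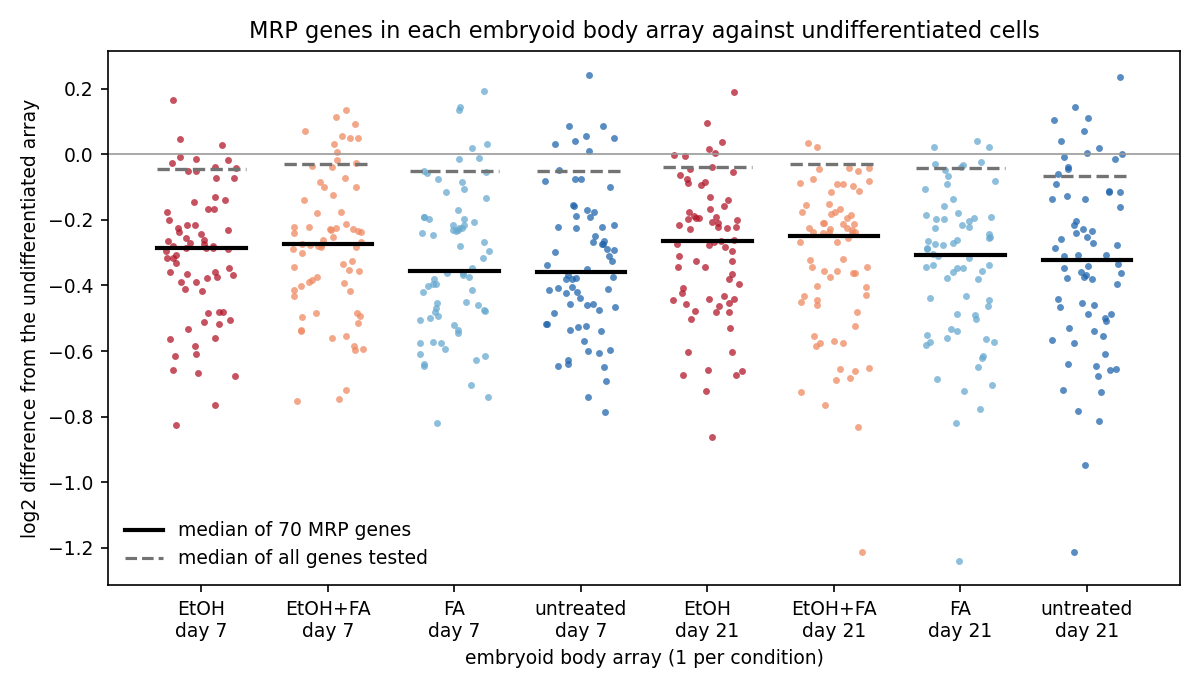
The log2 difference of each of the 70 tested MRP genes (points) from the undifferentiated array is drawn for each of the 8 embryoid body arrays, with the median of MRP genes (solid bar) and of all genes tested (dashed bar). The MRP medians lay between -0.36 and -0.25 and those of all genes between -0.07 and -0.03.

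The shift was present in each of the 8 embryoid body arrays. The MRP median stood at -0.29 with ethanol, -0.27 with ethanol and FA, -0.35 with FA and -0.36 untreated at day 7, and at -0.27, -0.25, -0.31 and -0.32 in the same order at day 21. Between 61 and 68 of the 70 genes lay below their undifferentiated value in each array. The undifferentiated array held the highest of the 9 values for 52 of 70 MRP genes (35 MRPL and 17 MRPS), where 26.9% of all tested genes had that order. It held the lowest value for 0 MRP genes, where 14.6% of all tested genes did.

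Cytosolic ribosomal protein genes, the counterparts that serve the main ribosome of the cell, did not share this position. Of 63 tested, 5 fell (7.94%) and 1 rose (1.59%) in the average of both days, with a median of -0.01. The background was 17.2% lower and 11% higher. Their medians over single arrays lay between -0.18, in the ethanol array of day 7, and 0.01. Near-identical copies of many of these genes can share probes, so single members are uncertain. The difference between both ribosomal families was not tested.

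MRPS12 and MRPS2 had the largest decreases among MRPS genes. MRPS12, counterpart of a bacterial protein at the decoding centre, ranged over 7.53, 7.82 and 8.09 (lowest, median, highest) in embryoid bodies, against 8.48 in undifferentiated cells, a difference of -0.75 ± 0.09. MRPS2, in which inherited defects impair mitochondrial translation, ranged over 9.96, 10.20 and 10.26, against 10.77, a difference of -0.63 ± 0.11. In both, every embryoid body array lay below the undifferentiated one. MRPS11, of the platform of the small subunit, fell by 0.60, MRPS16 by 0.50, MRPS34 by 0.50 and MRPS27, a protein with pentatricopeptide repeats, by 0.41. MRPS22 (-0.06 ± 0.15) and MRPS7 (-0.23 ± 0.10), further genes with known inherited defects, did not pass. Limma's adjusted p for the called MRPS genes lay between 0.00160 and 0.0446. Of 24 MRPS genes 14 fell (background 17.2%), with a median of -0.31.

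Of 46 MRPL genes 23 fell (background 17.2%), with a median of -0.32. MRPL57, a protein without a bacterial counterpart, ranged over 8.17, 8.33 and 8.38 in embryoid bodies, against 8.99 in undifferentiated cells, a difference of -0.69 ± 0.08. MRPL49, also particular to mitochondria, ranged over 10.21, 10.40 and 10.48, against 10.99, a difference of -0.67 ± 0.09. MRPL58, a peptidyl-tRNA hydrolase that releases stalled ribosomes, ranged over 9.43, 9.60 and 9.70, against 10.26, a difference of -0.61 ± 0.09. The ranges did not reach the undifferentiated value in any of these genes. The deposited values were identical on 3 arrays for MRPL57, on 2 for MRPS2 and on 4 for MRPL12, and on at least 2 for 15 of the 73 genes. MRPL44, which has an RNase III-like fold, fell by 0.55 and MRPL3, close to the peptidyl transferase centre, by 0.45. At the stalk that recruits translation factors, MRPL12, which also binds the mitochondrial RNA polymerase, fell by 0.41 and MRPL11 by 0.37, whereas MRPL10, which anchors the stalk, had a difference of -0.20 ± 0.12 and did not pass.

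A minority of MRP genes had embryoid body levels close to the undifferentiated one. MRPL45, which attaches the ribosome to the inner membrane where its products are inserted, ranged over 12.42, 12.49 and 12.57 in embryoid bodies, against 12.47 in undifferentiated cells. With MRPL42 (0.11) and MRPL39 (0.03) it was 1 of 3 genes with a difference above 0, at 0.06 ± 0.08, and none of them passed. MRPL41, which has also been linked to cell death control, had a difference of -0.26 ± 0.10 and did not pass. MRPS18A, MRPS18B and MRPS18C are related copies of which MRPS18A sits in the large subunit. MRPS18A fell by 0.49 and MRPS18B by 0.34, and MRPS18C was too dim to test, at 6.55 to 7.39 in embryoid bodies against 7.33 in undifferentiated cells. MRPS30, a large subunit protein despite its name, fell by 0.24.

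The decrease was present at both days. To day 7, 37 of 70 MRP genes fell (background 13.9% lower), with a median of -0.36, and to day 21, 35 of 70 fell (background 21.2%), with a median of -0.30. No MRP gene rose in either step, where 6.68% and 16.6% of all genes did. Calls in both steps were shared by 28 genes (background 9.58%), and 24 of these (background 5.68%) had no call between day 7 and day 21. The count to day 7 depended on single arrays. It was 18 without the FA array of day 7 and 6 without the untreated array of day 7. The medians were -0.36 and -0.34. Genes called lower over all genes dropped as well, from 1702 of 12254 to 874 of 12248 and 379 of 12237. Over the same steps the embryonal carcinoma markers had medians of -0.16 at day 7 and -1.91 at day 21. Both steps use the same undifferentiated array.

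**Figure D2:**
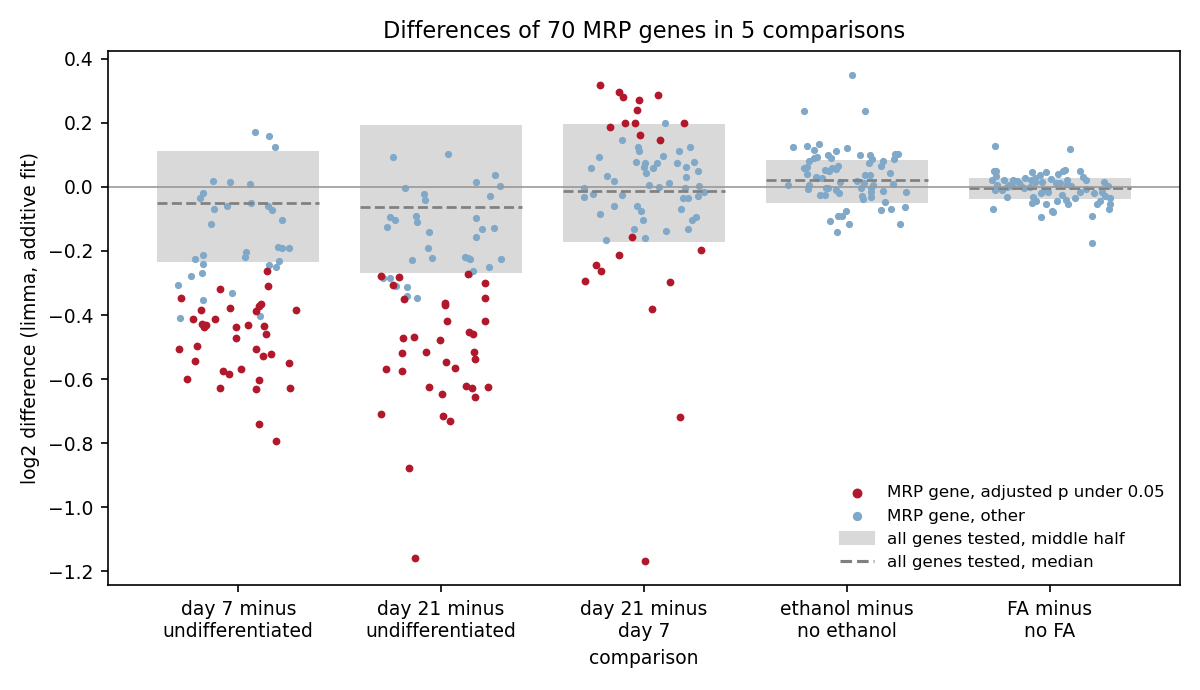
The log2 difference of each of 70 MRP genes is drawn for 5 comparisons of the additive fit, in red where the adjusted p was under 0.05, over the interquartile range and the median of all genes tested. Red points lie below 0 in both comparisons with undifferentiated cells, on either side of 0 between day 7 and day 21, and are absent for ethanol and FA.

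Between day 7 and day 21 the family did not move as a whole. At day 21, 12 of 70 MRP genes (17.1%) were higher and 10 (14.3%) lower than at day 7, against a background of 26.3% higher and 22.6% lower, and the median was 0.01. Centring the arrays on their medians gave 16 higher and 8 lower MRP genes, and placed the median of all genes at 0.04 in place of -0.01. Over all genes the centred fit called 3859 of 12200 higher and 2093 lower. The number of higher MRP genes fell to 6 without the untreated array of day 7 and to 7 without the ethanol and FA array of day 21. It fell to 6 without the untreated array of day 21. Over all genes 2589, 2844 and 2584 were higher in these fits, against 3224 with all arrays. Among MRPL genes 9 of 46 were higher and 7 lower, and among MRPS genes 3 of 24 were higher and 3 lower. In 14 genes all 4 arrays of day 21 lay above all 4 of day 7 (background 24.6%), and in 8 they lay below (background 21.4%).

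MRPL18 and MRPS25 had the largest differences between day 7 and day 21 in the family. MRPL18, whose bacterial counterpart binds 5S ribosomal RNA, had log2 levels of 10.70, 10.35, 10.32 and 10.35 at day 21 with ethanol, with ethanol and FA, with FA and untreated, against 11.55, 11.70, 11.55 and 11.59 at day 7 in the same order, and 11.56 in undifferentiated cells. The day groups were far apart and day 7 surrounded the undifferentiated value. The difference between day 21 and day 7 was -1.17 ± 0.08, or 2.25-fold (limma, adjusted p = 1.41e-05). MRPS25, a small subunit protein particular to mitochondria, had levels of 8.89, 8.76, 8.70 and 8.81 at day 21, against 9.38, 9.38, 9.61 and 9.66 at day 7 and 9.42 in undifferentiated cells. Again no value of day 21 reached those of day 7, and the difference was -0.72 ± 0.08 (adjusted p = 1.39e-04). Neither gene was called between day 7 and undifferentiated cells, at 0.01 for MRPL18 and 0.17 for MRPS25.

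**Figure D3:**
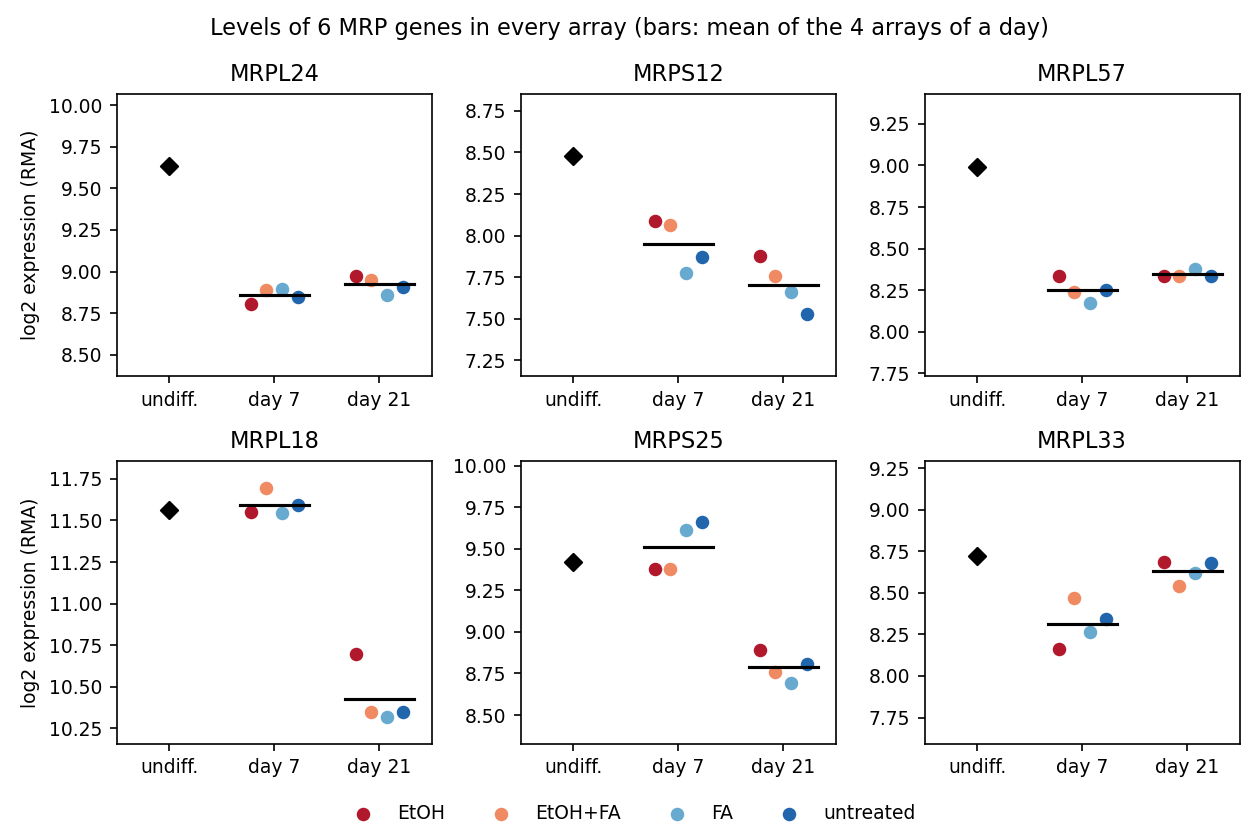
Log2 expression of 6 MRP genes is plotted for the undifferentiated array (diamond) and the 4 arrays of each day, coloured by treatment, with the mean of each day as a bar, on vertical axes of equal span. MRPL24, MRPS12 and MRPL57 were lower at both days, MRPL18 and MRPS25 at day 21 only, and MRPL33 was lowest at day 7.

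Smaller decreases between day 7 and day 21 were found in MRPL2 (-0.38 ± 0.05), counterpart of a protein near the peptidyl transferase centre, MRPL10 (-0.30 ± 0.07), MRPL17 (-0.29 ± 0.07) and MRPL39 (-0.26 ± 0.07). MRPL2 had 8.81, 8.81, 8.92 and 8.83 at day 21, against 9.12, 9.22, 9.29 and 9.27 at day 7, with no overlap, and 9.49 in undifferentiated cells, and its step to day 7 (-0.24) did not pass. MRPS12, MRPL55, MRPL34 and MRPS21 also fell, by 0.24, 0.21, 0.20 and 0.16. Several had no call between day 7 and undifferentiated cells, as was the case for MRPL18 and MRPS25. These were MRPL10 (-0.05), MRPL17 (-0.02), MRPL55 (-0.04), MRPS21 (0.02) and MRPL39 (0.16). Unlike MRPL18 and MRPS25, they had no call between day 21 and undifferentiated cells either. Those differences were -0.35 for MRPL10, -0.31 for MRPL17, -0.25 for MRPL55, -0.14 for MRPS21 and -0.10 for MRPL39. The call on MRPL39 was lost with centred arrays (adjusted p = 0.0503), without the FA array of day 7 (adjusted p = 0.0551) or without the ethanol and FA array of day 21 (adjusted p = 0.0535), and its adjusted p was 0.00845 at the lowest over all alternatives.

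In each of the 12 genes that rose, the mean of day 21 lay closer to the undifferentiated level than that of day 7, which was below it. MRPL33, counterpart of a small bacterial protein of the large subunit, had 8.69, 8.54, 8.62 and 8.68 at day 21, against 8.16, 8.47, 8.26 and 8.34 at day 7, and 8.72 in undifferentiated cells. The difference was 0.32 ± 0.08 (limma, adjusted p = 0.0102), with no overlap between days. MRPL30 (0.30 ± 0.06), MRPS14 (0.29 ± 0.06), MRPL40 (0.28 ± 0.07), MRPL53 (0.27 ± 0.05) and MRPL46 (0.24 ± 0.05) followed. MRPL40 lies in the chromosome region lost in 22q11 deletion syndrome, and inherited defects in MRPS14 impair mitochondrial translation. MRPS7, MRPL35, MRPL22, MRPS9, MRPL43 and MRPL28 rose by 0.15 to 0.20. The rise and the position of day 7 below undifferentiated cells share the day 7 arrays, so they are not independent. To day 7 the difference was below 0 in 64 of 70 MRP genes, so most rises would lead towards the undifferentiated level. No share over all genes that rose was set beside this order.

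**Figure D4:**
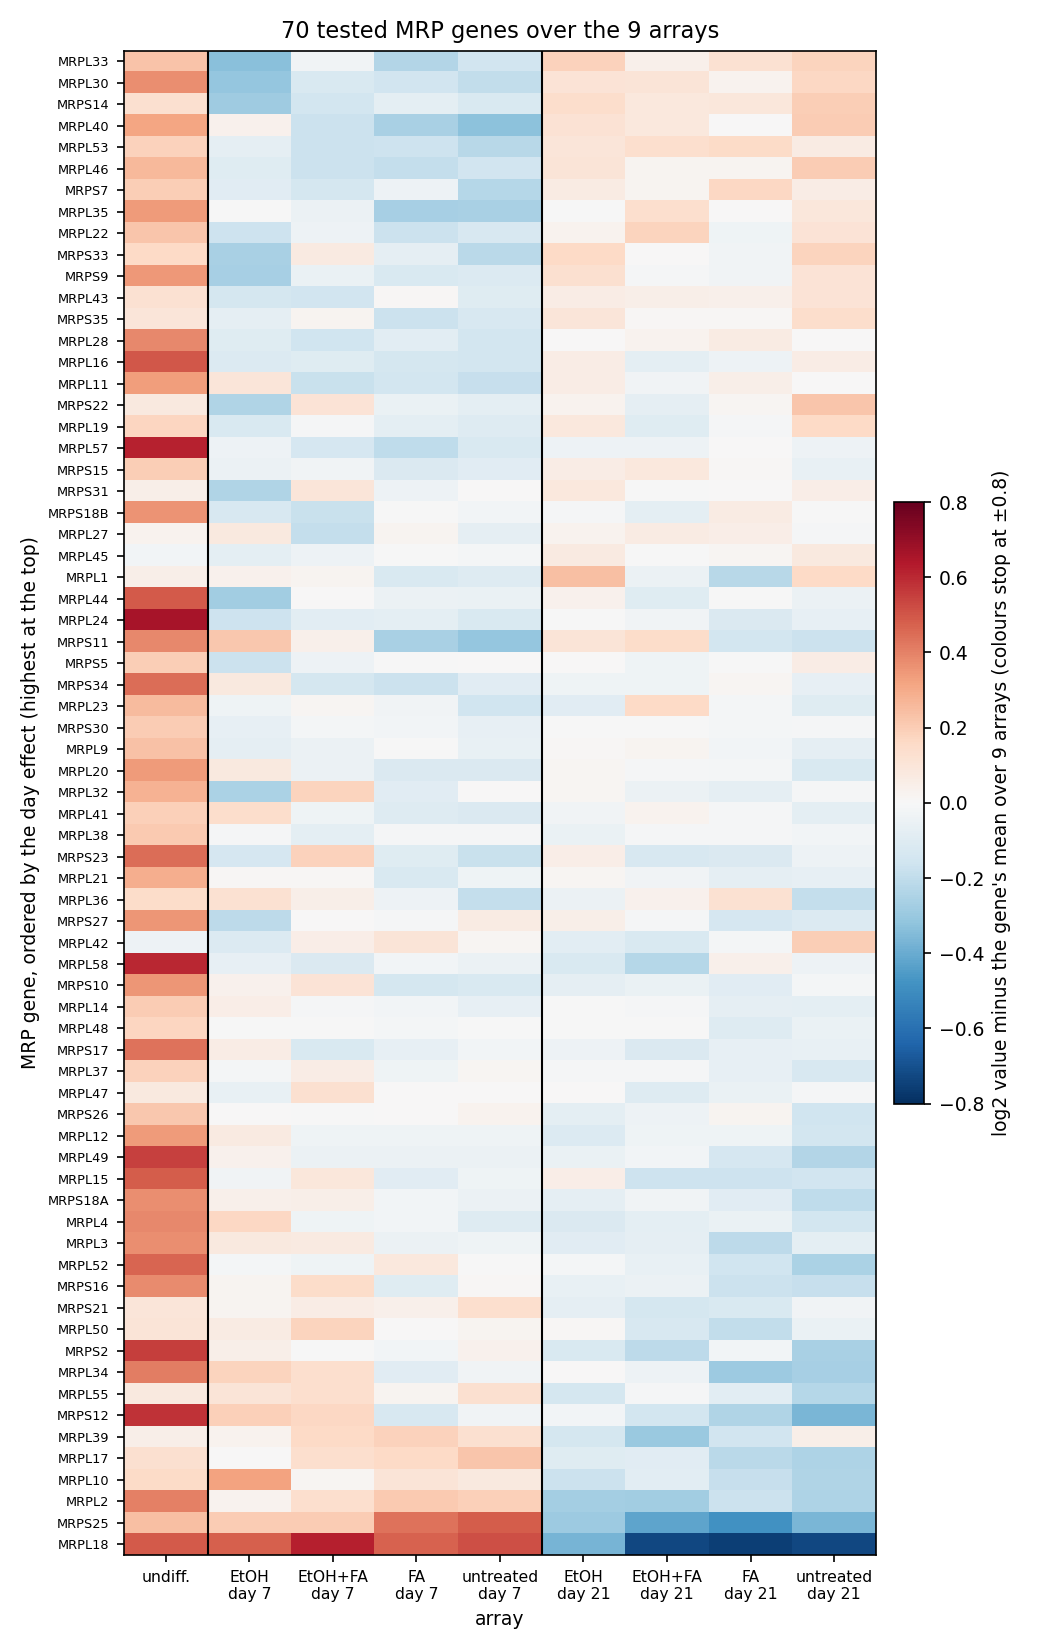
Each row is 1 of the 70 tested MRP genes and each column 1 of the 9 arrays, coloured by the log2 value minus the mean of that gene over the 9 arrays, with rows ordered by the difference between day 21 and day 7. The undifferentiated column is the darkest red for most rows, and MRPL18 and MRPS25 at the bottom change between the day blocks.

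No MRP gene passed the test for ethanol, where 0.563% of all genes were called higher and 0.122% lower. The MRP median was 0.03, against 0.02 over all genes, and differences ran from -0.14 to 0.35. At an unadjusted p under 0.05 limma gave 4 of 70 MRP genes (background 17.5%). MRPS11 had the largest difference, with 11.34 and 11.16 at day 7 and 11.22 and 11.27 at day 21 with ethanol (without and with FA), against 10.81 and 10.86 at day 7 and 10.95 and 10.97 at day 21 without it. All ethanol arrays lay above all others and below the 11.50 of undifferentiated cells. The difference of 0.35 ± 0.06 was positive in 4 of 4 matched pairs and just missed the threshold (adjusted p = 0.0508). It passed without the ethanol array of day 7, at 0.29 (adjusted p = 0.0296), and the adjusted p lay between 0.0245 and 0.231 over all alternatives.

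The other large ethanol differences were also increases. MRPL34 (0.24 ± 0.04, limma's adjusted p = 0.0624) was higher by 0.21 to 0.27 in 4 of 4 pairs, and passed without the ethanol array of day 7 (0.24, adjusted p = 0.0479, with 0.0479 to 0.287 over all alternatives). MRPS12 (0.24 ± 0.06, adjusted p = 0.105) was higher by 0.10 to 0.34 in 4 of 4 pairs. The most negative values were those of MRPL42 (-0.14), MRPL58 (-0.11) and MRPL39 (-0.11), none of which passed. Arrays with ethanol all lay above those without in 3 MRP genes (background 2.59%) and all below in 1 (background 1.49%). Of the 70 genes 13 were higher in 4 of 4 pairs (background 18.5%) and 8 lower (background 11%).

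FA made no call either, with a background of 0% in both directions. The MRP median was 0.00, the differences ran from -0.18 (MRPL1) to 0.13 (MRPL23), and limma's adjusted p rounded to 1.00 for every member. At an unadjusted p under 0.05 there were 2 MRP genes (background 0.987%). Next in size were MRPL36 (0.12) and MRPL32 (0.05) among positive values, and MRPL46 (-0.09) and MRPL40 (-0.09) among negative ones. No interaction between ethanol, FA and day passed for an MRP gene, and over all genes only 1 did, for ethanol by day (0.00816%). That count over all genes depended on single arrays, as given under processing below. At an unadjusted p under 0.05 limma gave 2 genes for ethanol by day, 0 for ethanol by FA and 6 for FA by day (background 7.48%, 0.816% and 12.2%). The largest was MRPS33 for FA by day, at -0.42 ± 0.10 (adjusted p = 0.403), and MRPS25 had 0.33 ± 0.10 for ethanol by day (adjusted p = 0.462), with ethanol differences of 0.08 and 0.06 at day 21, against -0.28 and -0.23 at day 7.

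Within embryoid bodies the median pair of the 70 genes had a low correlation. No value for other genes was set beside it, and positive and negative correlations can offset each other in a median. Over the 8 arrays the median correlation of 2415 gene pairs was 0.03, and 0.06 after the mean of each day was removed, with all pairs taken from the same arrays. Mean signals over the 9 arrays lay between 7.52 (MRPS22) and 12.49 (MRPL45) for tested genes, with MRPS15, MRPL47, MRPS21 and MRPL37 next to the top and MRPS33, like MRPS22, near the limit of the test. Signals of different probes do not rank genes by abundance.

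Other lists of genes for mitochondrial gene expression were set beside the same background of 17.2% lower and 11% higher. Of 24 assembly and rRNA modification genes 12 fell and 0 rose (median -0.31), with MPV17L2 at -0.85, DDX28 at -0.63 and the rRNA methyltransferase gene MRM2 at -0.54. Of 15 translation factor genes 7 fell and 0 rose (median -0.28), with the elongation factor gene TUFM at -0.77, the formyltransferase gene MTFMT at -0.54 and the translational activator gene TACO1 at -0.54. Of 17 genes of mitochondrial DNA upkeep and RNA synthesis and processing 5 fell (median -0.22), among them the helicase gene TWNK at -0.61, the tRNA processing gene ELAC2 at -0.60 and the RNase P subunit gene HSD17B10 at -0.55. Of 19 tRNA charging genes 2 fell, LARS2 (-0.59) and PARS2 (-0.35), and RARS2 rose by 0.41 (median -0.15). Of 4 ribosomal proteins with other symbols, DAP3, PTCD3, CHCHD1 and GADD45GIP1, 0 passed. The share that fell was below the background for tRNA charging genes, and differences between the lists were not tested.

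**Figure D5:**
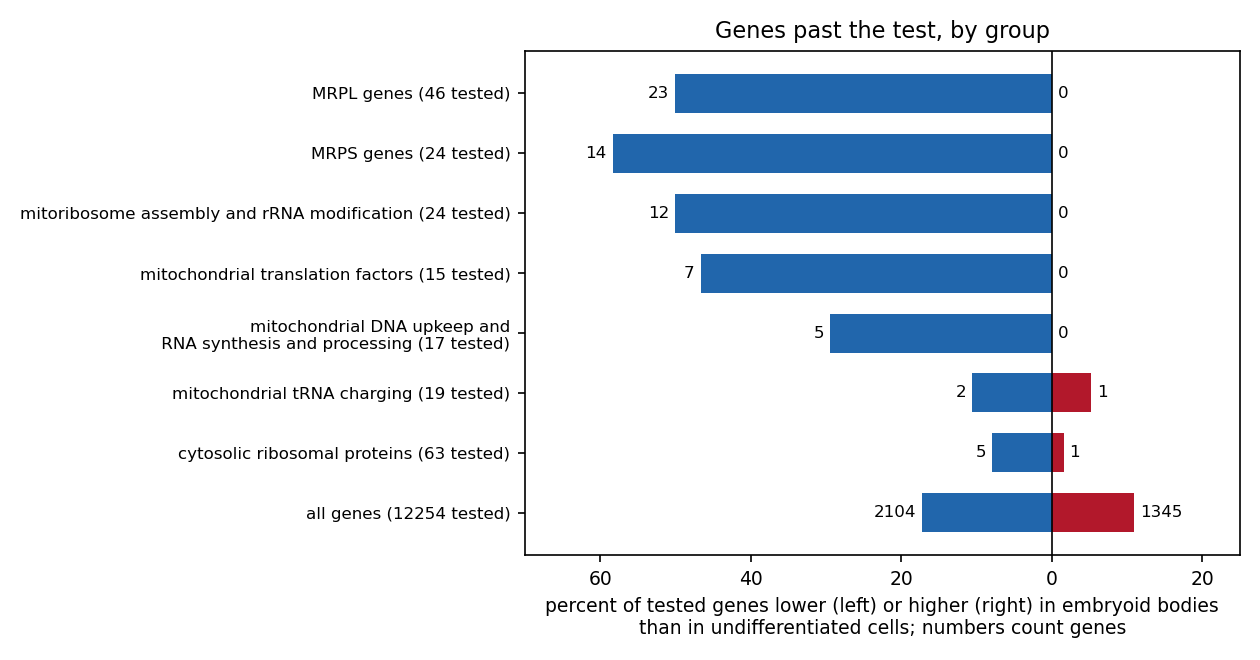
Bars give the percent of tested genes called lower (left) or higher (right) in embryoid bodies than in undifferentiated cells for 8 groups of genes, with the number of genes at each end. MRPL, MRPS, assembly and translation factor genes have the longest bars to the left, and the bars of cytosolic ribosomal protein genes are shorter than those of all genes tested.

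The counts of these lists between day 7 and day 21 stand against a background of 26.3% higher and 22.6% lower. Assembly genes rose in 2 and fell in 7 of 24 cases, with NGRN at 0.32, TFB1M at -0.54 and METTL17 at -0.39. Translation factors rose in 3 and fell in 3 of 15, with MTRF1L at 0.41 and SLIRP at -0.49. Genes of mitochondrial DNA and RNA rose in 0 and fell in 5 of 17, with POLG2 at -0.43, and tRNA charging genes rose in 3 and fell in 7 of 19, with CARS2 at 0.28 and MARS2 at -0.42. Cytosolic ribosomal protein genes rose in 10 and fell in 3 of 63, with RPS27L at 0.69, RPL39L at -2.63 and RPS24 at -1.17. None of these genes passed for ethanol or FA, while of the marker lists NCAM1 was higher with ethanol, by 0.47.

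Regulators that have been linked to nuclear genes for mitochondria split into those that fell and those without a call. Of 9 tested, 4 fell and 0 rose in embryoid bodies against undifferentiated cells (background 17.2% lower and 11% higher). MYC, a growth regulator, fell by 1.04, the coactivator gene PPRC1 by 0.75, its relative PPARGC1B by 0.50 and the nuclear receptor gene ESRRA by 0.44. NRF1 (0.02), the ETS factor genes GABPA (0.07) and GABPB1 (0.07), YY1 (-0.02) and PPARGC1A (0.41) did not pass. From day 7 to day 21 MYC (-1.14), PPARGC1B (-0.59), ESRRA (-0.36), PPRC1 (-0.32) and GABPA (-0.19) fell, PPARGC1A (0.35) and GABPB1 (0.22) rose, and NRF1 (-0.17) and YY1 (0.04) had no call (background 22.6% lower and 26.3% higher).

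Some MRP genes start next to a gene read in the opposite direction, as do genes outside the family. The limit was 1000 bases between the starts, chosen after the values were seen. Such a neighbour was found for 20 of 66 MRP genes (30.3%), against 23.2% of 9785 tested genes. The 20 include MRPL54 and MRPS18C, which were too dim to test. The difference between these shares was not tested. Of 15 neighbours that were tested 6 fell and 0 rose in embryoid bodies against undifferentiated cells (background 17.2% lower and 11% higher). Their median was -0.25. In 3 of these 6 the MRP gene fell too, where 37 of 70 MRP genes fell in the whole family. PSMA2 (-0.29) and HIRA (-0.35) fell, while their MRP genes, MRPL32 and MRPL40, were not called. MRPS11 fell, while MRPL46 was not called. MRPL46 and MRPS11 are neighbours of each other, so both count among the 15 and MRPS11 among the 6. The kinetochore gene SKA3, whose start lies 106 bases from that of MRPL57, fell by 0.69, as did MRPL57. FAU, which codes for a cytosolic ribosomal protein and lies 49 bases from MRPL49, fell by 0.42. The chaperonin gene TCP1, 210 bases from MRPL18, fell by 0.30, and between day 7 and day 21 it fell by 0.44 where MRPL18 fell by 1.17. SARS2, the mitochondrial seryl-tRNA synthetase gene whose start bounds the stretch printed for MRPS12, had -0.25 ± 0.12 and did not pass.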

How the data were processed

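Total RNA was labelled as biotinylated cDNA and hybridised to single-channel Affymetrix arrays, per the labels' protocols. Per the submitters' processing notes, the authors used Affymetrix Expression Console 1.3.1 and RMA to make the deposited log2 values. The log base was inferred from the values, which ran from 2.49 to 14.3. RMA gives arrays a common distribution and compresses differences of dim genes. Of 33297 clusters 19460 had 1 symbol in the platform annotation, 1754 several and 12083 none. No source at hand gives the build of the array's annotation. The Entrez ID of 19429 was found in RefSeq (GRCh38.p14). The brightest cluster stood for a gene.

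Genes were tested if their highest value exceeded the median of all values (7.71). One additive model per gene, with terms for ethanol, FA, day and the undifferentiated array, was fitted with limma 3.58.1 in R 4.3.3, with 4 residual degrees of freedom (3 with an interaction) and a prior of 3.94. With no replicates, the error is the residual of this model, interactions included. The number of arrays limits precision. Alternatives were other filters, the mean of clusters, centred arrays, an intensity trend and leaving out each array. Named genes were, per effect, up to 6 called members in each direction with the largest difference (with no call, the 3 largest), 3 per direction for interactions, the 5 brightest and dimmest, members with a role of their own, up to 3 per direction from other lists, and all regulators. Other genes were named after their values were seen. The members and lists were chosen with earlier results of these data known.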

Additional observations from a re-analysis of the deposited data

Results flagged for a closer look

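A cluster that the platform annotation assigns to both MRPS6 and SLC5A3, a myo-inositol transporter gene, lay outside every count because its signal cannot be given to 1 gene. It drew attention because its 4 arrays of day 21 lay above all others. Its log2 levels were 11.43, 11.29, 11.10 and 11.29 at day 21 with ethanol, with ethanol and FA, with FA and untreated, against 9.88, 9.88, 10.15 and 10.21 at day 7 in the same order and 9.54 in undifferentiated cells. The mean of day 21 was higher than that of day 7 by 1.25, beyond any single-symbol MRP gene that rose. This difference was not tested.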

How the results depend on the processing

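No paired analysis was possible because the labels gave no replicate numbers to use as a block, while matched conditions entered through the model's terms for day, ethanol and FA. Filter, clusters, centring and variance prior were varied in 5 alternative settings. In them the number of MRP genes lower in embryoid bodies stayed within 1.5 times the reported one, and 0 were higher. With no filter 33 of 73 were lower, against 1932 of 18417 over all genes. With a filter on the mean 40 of 69 were lower, against 2113 of 11099 over all genes. Under the 5 settings the family's medians moved by less than a typical SE in each comparison. The ethanol count became 1 higher with the filter on the mean and 1 with an intensity trend, MRPS11 in both (adjusted p = 0.0452 and 0.0245). Over all genes 95 of 11099 and 124 of 12254 were higher in these fits, against 69 of 12254 in the main fit. Leaving out single arrays, the MRP genes lower in embryoid bodies numbered 25 to 48 on average over the days. They numbered 6 to 44 to day 7 and 28 to 47 to day 21. Over all genes the counts were 1274 to 2824, 379 to 2309 and 1926 to 3296 in the same order. Genes higher between day 7 and day 21 numbered 6 to 15 and genes lower 8 to 12. Over all genes these counts were 2474 to 3620 and 1961 to 3358. Genes higher with ethanol numbered 0 to 2, against 0 to 160 over all genes. Calls for ethanol by day numbered 0 to 2, where the 2 came without the ethanol and FA array of day 7. That fit called 795 higher and 323 lower over 12247 genes. Without the ethanol array of day 7, 114 were higher and 269 lower over 12029 genes, with 0 MRP genes among them. The FA difference of MRPL32 ran from -0.0423 to 0.0939, and was below 0 without the ethanol array of day 7 or the ethanol and FA array of day 7 (-0.0377). MRPS11 lost its call to day 7 without the untreated array of day 7 (adjusted p = 0.0515, against 0.000895 at the lowest over the alternatives). The cause of these changes was not tested. Contrasts with undifferentiated cells have no value without that array. Signals near the limit, as for MRPS22 and MRPS33, hold little information on change.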

Other observations

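MRPL36 had a pair of clusters with 1 symbol that differed between days. The brighter, used above, had a mean of 11.09 at both days, while the dimmer had 10.65, 10.70, 10.68 and 10.70 at day 21 (ethanol, ethanol and FA, FA, untreated), against 10.36, 10.40, 10.22 and 10.25 at day 7 and 10.83 in undifferentiated cells, a difference of 0.37 between days. The 3 clusters of MRPS18B held the same values on every array, as did both clusters of MRPL20, so they add no information. The cluster shared by MRPS24 and its read-through transcript with URGCP had a mean 0.51 below the undifferentiated value over the 8 embryoid body arrays, and the cluster shared by MRPS28 and TPD52 likewise 0.51 below, while that of MRPL51 and SPTLC1 lay 0.13 below. These values were not tested.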
